A study of Mesocricetus auratus with 8 samples.

Results

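The molecular chaperones examined here were the HSP70, HSP110, HSP90, DNAJ, mitochondrial chaperonin and TRiC genes and their heat shock factors, measured by RNA-seq in skeletal muscle satellite cells (SCs) of the Syrian hamster before and after cold exposure. Members were chosen by gene symbol alone, as every entry with values whose symbol begins with Hspa, Dnaja, Dnajb, Dnajc or Hsf and a number, with Hsp90, Hsph1, Hspd1 or Hspe1, or with Cct2 to Cct8, and Tcp1. This gave 71 of the 17590 genes with values, made up of 8 HSP70, 3 HSP110, 3 HSP90, 4 DNAJA, 11 DNAJB, 27 DNAJC, 10 TRiC and 4 HSF genes and the chaperonin Hspd1. Another 3 matching entries (Dnajc5g, Dnajb8 and Dnajb7) carried no values, and Hspa1a, Hspa1b, Hspa1l and Hspe1 were not analysed here because no entry bore those symbols. The SCs are the resident muscle stem cells, and these came from hindlimb muscle of wild-type male Slc:Syrian hamsters of 8 to 16 weeks, enriched by preplating rather than by a sort. Every culture was kept at 37°C for 48 h in growth medium (GM) and for another 24 h in GM with 100 mM HEPES, a pH buffer. Control libraries (n = 4) were made then, at 0 h of cold, and cold libraries (n = 4) after a further 24 h at 4°C. Cold libraries were therefore taken 24 h later in culture, no library held at 37°C for that time was analysed here, and cold and added culture time cannot be told apart. The labels of control replicates 1 to 4 give 3, 4, 5 and 6 days at 37°C while their titles place all of them on day 3 of GM, and the titles were followed.

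HSP70 proteins bind unfolded stretches of other proteins in a cycle driven by ATP. DNAJ (J-domain) proteins deliver clients to HSP70 and switch on its ATPase, and HSP110 proteins exchange its nucleotide so that the client is let go. HSP90 acts later, on near-native clients such as kinases and steroid receptors, and TRiC is a double-ring chamber of 8 different subunits that folds actin and tubulin, among other proteins. HSF1 is the transcription factor that raises many of these genes when unfolded protein builds up, in heat and in other stresses. In muscle cells these systems serve the folding of myosin and actin and the assembly of the contractile apparatus.

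Transcripts of the chaperones stayed close to their 37°C level after 24 h at 4°C. The most abundant member, Hspa8, differed by -0.02 ± 0.03 on the log2 scale (cold against control, SE, n = 4 pairs), the second by mean level, Hsp90ab1, by 0.05 ± 0.03, and the highest TRiC subunit, Tcp1, by 0.06 with a 95% interval of -0.01 to 0.13. None of the 65 members with enough reads for a test reached a log2 fold change of 1 in either direction at an adjusted p under 0.05, a threshold that 0.848% of the 12506 genes tested passed. Dropping the fold threshold left Dnajb5 and Dnajc18 lower and Dnajc2 and Dnajc9 higher in cold, each by between 12.3% and 14.5% in size. These 4 members of 65 (6.15%) stand beside 5.33% of all genes tested, with 4.07% lower and 1.26% higher, so the share of members called was near the background. The 95% interval of the change lay within 0.5 of 0 on the log2 scale for 61 of 65 members (93.8%), against 85.1% of all genes tested, and the members were also the more abundant genes, with a median mean level of 52.0 against 16.1 TPM, the share of transcripts scaled to a fixed sum in each library.

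**Figure D1:**
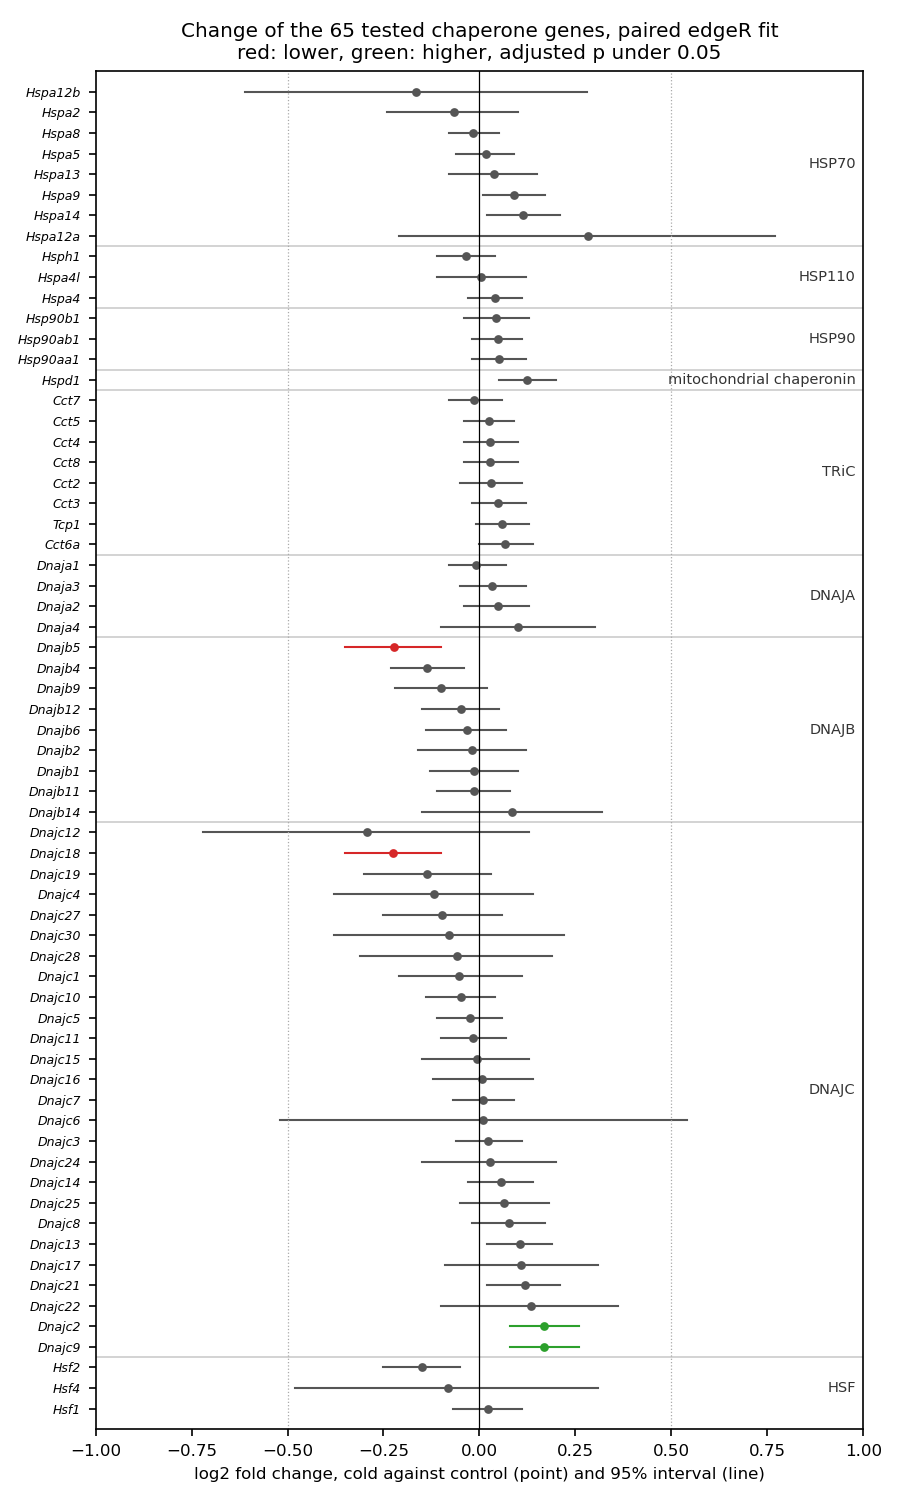
The horizontal axis gives the log2 fold change of cold against control from the paired edgeR fit (4 pairs of libraries), and each row is 1 of the 65 tested chaperone genes, grouped by class; points are estimates, lines are 95% intervals, and dotted lines mark 0.5 in either direction. Red marks Dnajb5 and Dnajc18 (lower) and green Dnajc2 and Dnajc9 (higher) at an adjusted p under 0.05, and only the intervals of Dnajc12, Dnajc6, Hspa12a and Hspa12b pass beyond a dotted line.

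The test behind these counts was edgeR's quasi-likelihood F test on expected counts, blocked by replicate number so that each cold library was set against the control library of the same number. Without that block, 0 members were called (3 at an unadjusted p under 0.05), where 0.072% of all genes were called and 6.7% had an unadjusted p under 0.05. With the block, DESeq2 also called 0 of 66 members (8 of 70 unadjusted). It called 2.65% of 13430 genes, and 7.21% of 16648 had an unadjusted p under 0.05. Limma on log2 TPM called 0 of 67 members (12 of 67 unadjusted), beside 2.11% and 14.4% of 13792 genes. In the blocked edgeR fit 11 of 65 members (16.9%) had an unadjusted p under 0.05, against 18.2% of all genes. All libraries were close in depth, with between 16530747 and 18533801 expected counts. The 6 untested members (Cct6b, Cct8l2, Dnajb13, Dnajb3, Dnajc5b and Hsf5) lay at or near 0 TPM in every library, at no more than 0.58 TPM.

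The cultures carried the markers of their label. Summed TPM of 8 satellite cell and myoblast markers was 2120 to 2590 in control and 2030 to 2430 in cold libraries, with Pax7 at 12.7 ± 2.17 and 13.5 ± 1.70 TPM (SD, n = 4 each). Of these 8, 3 were called lower (Cdh15 at -0.32, Itga7 at -0.29 and Myod1 at -0.13 on the log2 scale) and 1 higher (Megf10 at 0.17). All 4 calls were lost without the block (adjusted p of 0.797 to 0.999). With the block, DESeq2 kept all 4 and limma kept 2 of them, Cdh15 and Itga7. The 7 differentiating myocyte markers all fell, with a median log2 fold change of -1.46 and sums of 1560 to 3000 against 795 to 1370 TPM. These 7 were also called by DESeq2 and limma with the block, and 0 of 7 without it (adjusted p of 0.056 to 0.824). Fibroblast markers (8 of 9 listed) were also present, at 1220 to 1750 against 1200 to 1690 TPM, with 0 of 8 called by edgeR. The 6 blood and macrophage markers summed to 40.9 to 97.3 TPM in control and 44.1 to 105 TPM in cold, with 0 of the 3 tested called. Most of that sum was Cd68 (23.3 to 52.0 TPM) and Cd14 (14.9 to 49.0 TPM), with Csf1r at 2.31 to 4.55 TPM, whereas Ptprc, Adgre1 and Itgam were at or near 0 (at most 0.07 TPM). These marker differences accompanied every comparison below and their part in any of them was not tested. TPM is a share of the mRNA in a library, and in bulk cultures fewer cells of a type and less RNA per cell cannot be told apart.

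The HSP70 class was dominated by Hspa8, the constitutive cytosolic HSC70, followed by Hspa5 (BiP of the endoplasmic reticulum, ER) and Hspa9 (mortalin of mitochondria). Hspa8 was at 2920, 2987, 2704 and 2845 TPM in control replicates 1 to 4 and at 3107, 3149, 2619 and 2627 TPM in cold replicates 1 to 4. The groups overlapped, with means of 2864 and 2875 TPM (SD 122 and 292). Cold was higher in replicates 1 and 2 and lower in replicates 3 and 4. Hspa5 was at 829, 883, 735 and 846 TPM in control and at 915, 955, 732 and 782 TPM in cold, again overlapping, with a log2 fold change of 0.02 (95% interval -0.06 to 0.09). Hspa9 was at 463, 468, 464 and 522 TPM in control and at 561, 535, 478 and 495 TPM in cold, a log2 fold change of 0.09 (0.01 to 0.17) that missed the threshold (adjusted p = 0.222) and passed it without replicate 4 (0.13, adjusted p = 0.0257). Without replicate 1, 2 or 3 its log2 fold change was 0.04, 0.07 or 0.10, with adjusted p values of 0.788, 0.634 and 0.276. Hspa14, which works with Dnajc2 on the ribosome, had 68.2, 63.4, 60.0 and 64.8 TPM in control and 76.4, 73.5, 66.2 and 64.9 TPM in cold, with a log2 fold change of 0.11 (adjusted p = 0.155).

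The remaining HSP70 genes were low. Hspa13, an ER-associated relative, had means of 23.8 and 24.7 TPM, and Hspa2, best known from the testis, had 8.03 and 7.72 TPM. The divergent members Hspa12a and Hspa12b lay under 1.4 TPM, on 8 to 40 and 15 to 46 counts per library. Hspa12a had the largest positive estimate of all members (0.28), but its interval of -0.21 to 0.77 spans 0, and no difference was detectable. Across the class, 0 of 8 genes were called, with a summed level of 4264 ± 186 TPM in control and 4342 ± 436 TPM in cold.

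The nucleotide exchange factors of the HSP110 class followed the same course. Hspa4 was at 194, 196, 226 and 234 TPM in control and at 209, 218, 230 and 226 TPM in cold. Hsph1, itself a heat-inducible gene, was at 126, 132, 130 and 146 TPM and at 122, 134, 132 and 137 TPM, with a log2 fold change of -0.04 (-0.11 to 0.04). Hspa4l differed by 0.00 (-0.11 to 0.12) at about 13 TPM in both groups.

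Of the HSP90 genes, the constitutive cytosolic Hsp90ab1 was the highest, above the inducible cytosolic Hsp90aa1 and the ER form Hsp90b1 (GRP94) in each library. Hsp90ab1 was at 2643, 2755, 2528 and 2691 TPM in control and at 2948, 2942, 2546 and 2679 TPM in cold. Hsp90aa1 was at 1014, 1052, 1164 and 1264 TPM in control and at 1118, 1160, 1216 and 1200 TPM in cold. Hsp90b1 was at 771, 851, 752 and 883 TPM in control and at 905, 950, 770 and 779 TPM in cold. In all of them the groups overlapped and cold replicates 1 and 2 lay above their controls, whereas cold replicate 4 lay below its control. The 3 log2 fold changes were between 0.04 and 0.05, with intervals reaching from -0.04 to 0.13 and adjusted p values of 0.466, 0.466 and 0.636.

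**Figure D2:**
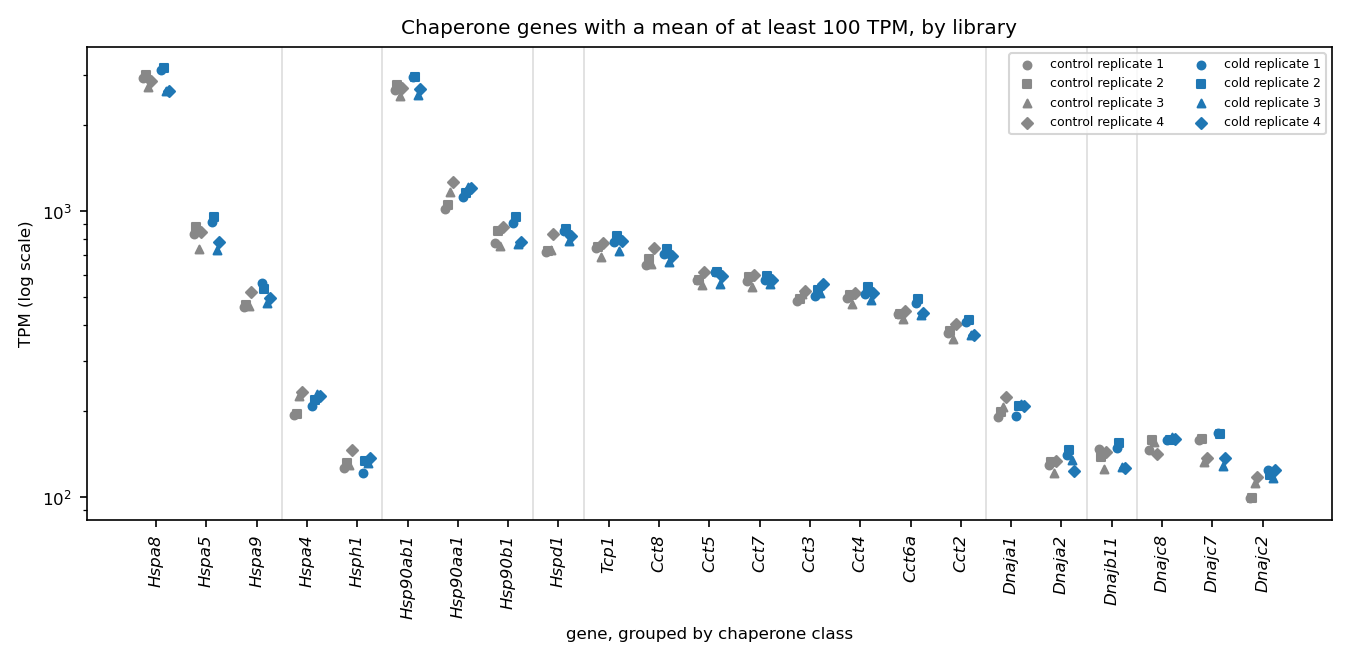
The vertical axis is TPM on a log scale for the 23 chaperone genes with a mean of at least 100 TPM, grouped by class along the horizontal axis, with 1 point per library (grey control, blue cold, marker shape for the replicate number). Control and cold points overlap for each gene shown except Dnajc8, and Hspa8 and Hsp90ab1 are the highest in all 8 libraries.

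Hspd1 (NCBI Gene 101844216), the HSP60 chamber of mitochondria, came nearest to a call without reaching it. It was at 719, 727, 731 and 832 TPM in control and at 851, 865, 783 and 818 TPM in cold. Cold was higher in replicates 1 to 3 and lower in replicate 4, whose control stood above the other controls. The log2 fold change was 0.12 ± 0.04 (0.05 to 0.20) with an adjusted p of 0.0501. Leaving out replicate 4 gave 0.16 (adjusted p = 0.00292), and leaving out replicate 2 gave 0.09 (0.408). Its partner Hspe1 was not analysed here.

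The TRiC subunits stayed near their 37°C levels. Tcp1 was the highest and Cct2 the lowest of the 8 measured subunits in each of the 8 libraries, and the ratio between them ran from 1.91 to 2.13. Tcp1 was at 744, 747, 691 and 773 TPM in control and at 782, 815, 725 and 789 TPM in cold, and Cct2 at 374, 381, 356 and 403 TPM and at 410, 416, 368 and 370 TPM. The subunits in between had control means of 435 (Cct6a), 500 (Cct4), 503 (Cct3), 574 (Cct7), 578 (Cct5) and 681 TPM (Cct8) and cold means of 461, 515, 526, 575, 594 and 701 TPM. The neighbours Cct4 and Cct3, and Cct7 and Cct5, lay within the spread of their libraries. The log2 fold changes ran from -0.01 (Cct7) to 0.07 (Cct6a), 0 of 8 were called, and the interval furthest from 0 reached 0.14. The sum over the class was 4387 ± 177 TPM in control and 4542 ± 175 TPM in cold. The paralogue Cct6b and the relative Cct8l2 were at or near 0 throughout.

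Among the DNAJA genes, which resemble bacterial DnaJ, Dnaja1 and Dnaja2 of the cytosol were the highest. Dnaja1 was at 190, 198, 207 and 224 TPM in control and at 193, 209, 211 and 209 TPM in cold, with a log2 fold change of -0.01 (-0.08 to 0.07). Dnaja2 had means of 130 and 136 TPM, the mitochondrial Dnaja3 62.5 and 64.6 TPM, and Dnaja4 4.68 and 5.11 TPM. The largest of the 4 changes was that of Dnaja4, 0.10, with an interval of -0.10 to 0.30.

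The DNAJB class held 1 of the called genes among its 9 tested. Dnajb5 (NCBI Gene 101837447), a cytosolic J protein related to Dnajb1 and Dnajb4, was at 24.6, 23.9, 22.3 and 19.4 TPM in control and at 20.9, 19.8, 20.4 and 17.0 TPM in cold. It was lower in cold in 4 of 4 pairs although the groups overlapped, with a log2 fold change of -0.22 ± 0.06 (-0.35 to -0.10, adjusted p = 0.0284), with a fold of 0.857. Without the block its adjusted p was 0.797, and in the exact permutation test of 4 against 4 TPM values p was 0.114. It was not called without replicate 1 (adjusted p = 0.141) or replicate 2 (0.197).

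The closest relatives of Dnajb5 did not pass. Dnajb4 was at 37.7, 37.0, 27.8 and 31.7 TPM in control and at 34.9, 33.8, 26.6 and 27.0 TPM in cold, lower in 4 of 4 pairs but with an adjusted p of 0.106. Dnajb1, the HSP40 that heat induces together with HSP70, was at 29.1, 30.9, 33.9 and 29.9 TPM in control and at 31.9, 33.8, 30.0 and 28.3 TPM in cold, higher in replicates 1 and 2 and lower in replicates 3 and 4. Its log2 fold change was -0.01, with an interval of -0.13 to 0.10. Dnajb6, an inhibitor of aggregation that is mutated in a human muscular dystrophy, had means of 71.5 and 70.1 TPM. Of the ER forms, Dnajb11, the highest of the class, had a mean of 139 TPM in both groups and Dnajb9 had 35.1 and 31.1 TPM, with a log2 fold change of -0.10 (-0.22 to 0.02). The smallest level among the tested DNAJB genes was that of Dnajb14, at about 1.1 TPM.

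The DNAJC class, the most varied, held the other 3 called genes. Dnajc18 (NCBI Gene 101834515), a J protein of the ER membrane, was at 11.1, 11.7, 14.6 and 15.3 TPM in control and at 10.2, 9.33, 13.2 and 12.9 TPM in cold. Replicates 3 and 4 were higher than replicates 1 and 2 in both groups, and within each number cold was lower. The log2 fold change was -0.23 ± 0.06 (-0.35 to -0.10, adjusted p = 0.0343), and without the block the adjusted p was 0.879. It was not called without replicate 1 (0.0683), replicate 2 (0.216) or replicate 3 (0.069).

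Dnajc2 and Dnajc9 rose. Dnajc2 (NCBI Gene 101825343), the ribosome-bound J protein that partners Hspa14, was at 99.2, 99.2, 112 and 118 TPM in control and at 124, 120, 117 and 124 TPM in cold. Dnajc9 (NCBI Gene 101835807), which also binds histones H3 and H4 and feeds them to chromatin assembly, was at 79.9, 78.5, 92.0 and 86.4 TPM in control and at 91.8, 94.8, 99.4 and 95.9 TPM in cold. Each was higher in 4 of 4 pairs, and each pair of groups overlapped by the single highest control value. The log2 fold change of either was 0.17 ± 0.04 (0.08 to 0.26), with adjusted p values of 0.0275 and 0.0228. Without the block these were 0.462 and 0.349, and the exact permutation test of TPM gave p = 0.0571 for both. Neither was called without replicate 1 (adjusted p of 0.204 for Dnajc2 and 0.0797 for Dnajc9) or replicate 2 (0.238 for both), and Dnajc9 was not called without replicate 3 either.

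**Figure D3:**
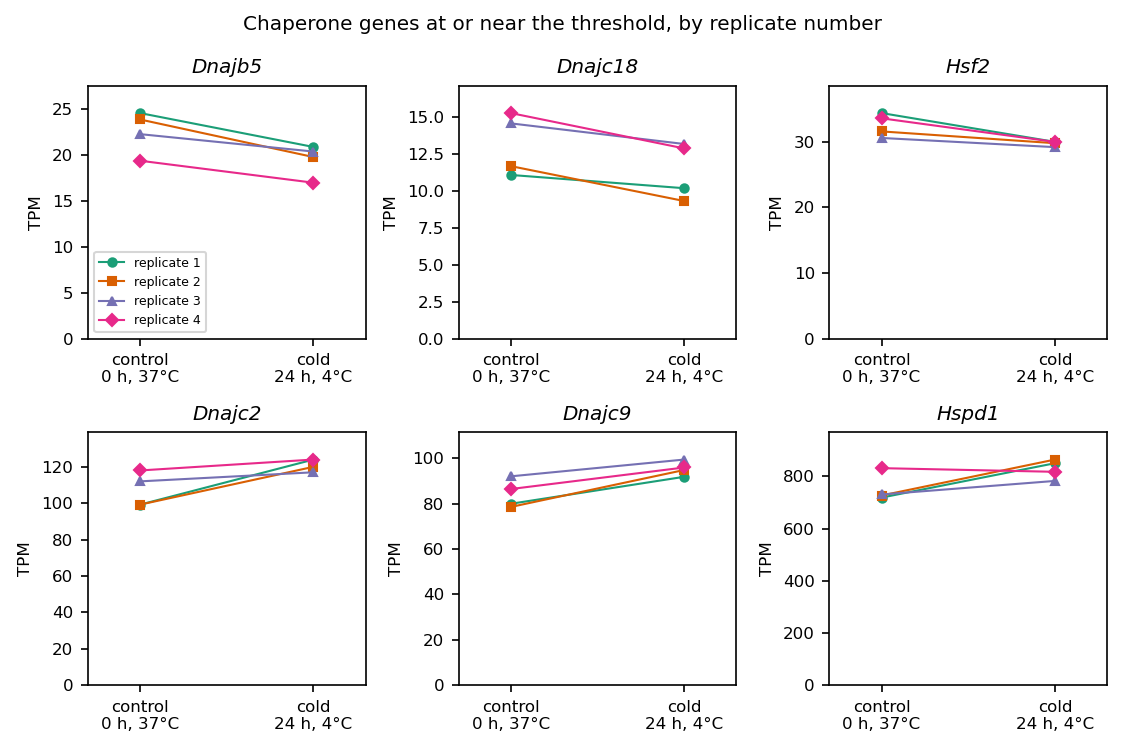
The vertical axes give TPM from 0 for 6 chaperone genes, and each line joins the control library (left) to the cold library (right) of the same replicate number, 4 lines per gene. Dnajb5, Dnajc18 and Hsf2 go down and Dnajc2 and Dnajc9 go up in 4 of 4 pairs, whereas Hspd1 goes up in replicates 1 to 3 only.

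Other DNAJC genes showed small or uncertain differences. Dnajc8, a J protein associated with the spliceosome, had the highest mean of the class, although Dnajc7 was higher in replicates 1 and 2 of both groups, and was the only member whose cold values all lay above its control values, at 158.87, 158.42, 163.25 and 160.15 TPM against 145.75, 157.73, 156.2 and 142.21 TPM. The exact permutation p was 0.0286, the smallest that 4 against 4 libraries allow, but the adjusted p was 0.391, and 4.68% of all genes did not overlap between the groups in either direction. Dnajc21, a factor of ribosome assembly, and Dnajc13, of endosomes, were higher in 4 of 4 pairs with log2 fold changes of 0.12 and 0.11 and adjusted p values of 0.150 and 0.163. The ER genes Dnajc3 and Dnajc10 had log2 fold changes of 0.02 and -0.05. Dnajc12 had the largest negative estimate of all members, -0.29, at 21 to 59 counts per library and with an interval of -0.72 to 0.13.

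Of the heat shock factors, Hsf1 and Hsf2 were clearly measured. Hsf1 was at 53.9, 54.8, 64.0 and 65.1 TPM in control and at 58.0, 55.9, 63.5 and 66.5 TPM in cold, a log2 fold change of 0.02 (-0.07 to 0.11). Here the replicates 3 and 4 lay above the replicates 1 and 2 in either group, and cold and control values were intermixed. Hsf2 (NCBI Gene 101825832) was at 34.4, 31.6, 30.6 and 33.6 TPM in control and at 30.0, 29.8, 29.2 and 30.0 TPM in cold. Its cold values all lay under its control values (exact permutation p = 0.0286), while the adjusted p of its log2 fold change of -0.15 ± 0.05 was 0.0975. Hsf4 was near 2 TPM and Hsf5 near 0. These values are transcript levels and say nothing of the active state of HSF1 protein.

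As for genes at large, replicate number parted the members more often than cold did. For 17 of 65 members (26.2%) the 4 libraries of replicates 1 and 2 did not overlap those of replicates 3 and 4, as held for 32.6% of all genes, whereas control and cold did not overlap for 2 of 65, beside 4.68% of all genes, so neither count sets the members apart. Hspa8, Dnajc7 and Dnajb4 were among the 7 higher in replicates 1 and 2, and Hsp90aa1, Hspa4 and Hsf1 among the 10 higher in replicates 3 and 4. Neither the labels nor the methods say what a number marks. Some cell markers parted the same way in control replicates 1 to 4, with Myog at 1008, 1016, 449 and 480 TPM and Myf5 at 99.8, 103, 182 and 202 TPM. Mymx differed little, at 282, 272, 262 and 267 TPM. The part of such marker differences in the replicate pattern was not tested.

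The size of the cold difference also varied with the replicate number. Among the 15 members with a mean of at least 300 TPM, cold TPM was above control TPM in 15 of 15 genes in replicate 1, in 15 in replicate 2, in 13 in replicate 3 and in 3 in replicate 4. Over all 65 tested members the shares were 72.3%, 76.9%, 58.5% and 30.8%, and over all genes tested they were 61.6%, 60.8%, 53.8% and 40.1%. The median log2 ratios of the 15 were 0.13, 0.12, 0.04 and -0.07, those of the 65 were 0.09, 0.10, 0.02 and -0.08, and those of all genes were 0.06, 0.05, 0.01 and -0.04. In each of these sets replicates 1 and 2 stood highest and replicate 4 lowest, so that pattern was common to genes at large on this scale. Summed over all members, TPM was 16099, 16524, 15717 and 17036 in control and 17496, 17843, 15926 and 16367 in cold, or between 1.57% and 1.78% of each library. The means were 16344 ± 567 and 16908 ± 909 TPM (SD between libraries). Within numbers, the cold sum was higher in replicates 1, 2 and 3 and lower in replicate 4, and the sum was not tested.

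**Figure D4:**
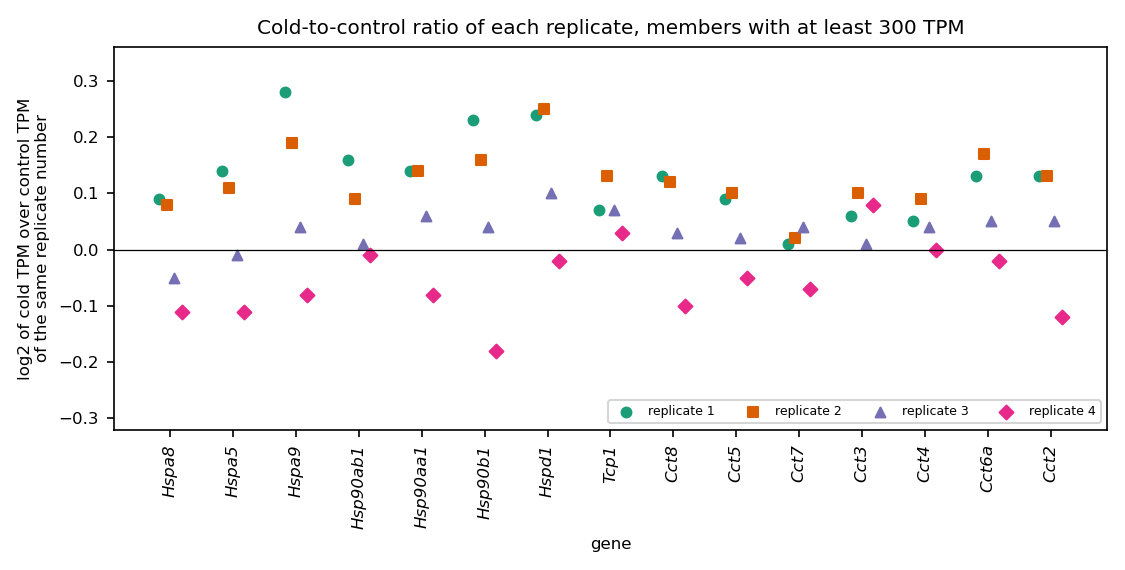
The vertical axis is the log2 ratio of cold to control TPM within each replicate number for the 15 chaperone genes with a mean of at least 300 TPM, with colour and marker for the number and a line at 0 for no difference. Replicates 1 and 2 lie above 0 for 15 of 15 genes, replicate 4 for 3 of 15.

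In the fit to replicates 1 and 2 alone, edgeR called 12 of 65 members, of which 4 were lower (Dnajb4, Dnajb5, Dnajc18 and Hsf2) and 8 higher (Cct6a, Dnajc13, Dnajc2, Dnajc9, Hsp90aa1, Hsp90b1, Hspa9 and Hspd1), with 17.1% of all genes called. In the fit to replicates 3 and 4 alone it called 0 (6 at an unadjusted p under 0.05), with 2.95% of all genes called. Hspd1 had a log2 fold change of 0.19 in the former and 0.05 in the latter, Dnajc2 0.24 and 0.08, and Dnajb5 -0.32 and -0.13. Each of these fits held few pairs, so its p-values rest largely on spread shared across genes rather than on that of the gene itself. A difference between these pairs of replicates was not tested. By TPM, 11 of 65 members (16.9%) were higher in cold in 4 of 4 pairs, against 12.8% of all genes, and 4 (6.15%) were lower, against 10.5%.

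The partners of these chaperones were counted from lists. The 15 HSP70 co-chaperones and nucleotide exchange factors had 0 called in edgeR and a median log2 fold change of 0.01, and the 14 measured HSP90 co-chaperones had 0 called and a median of 0.04. The 14 prefoldin and TRiC partners, which hand actin and tubulin to and from TRiC, had 0 called and a median of 0.02. The 14 genes of ER folding and the unfolded protein response had 0 called and a median of -0.01. The stress factor Ddit3 (CHOP) was among them, at 8.11, 7.75, 8.84 and 10.5 TPM in control and 7.14, 4.53, 9.23 and 10.1 TPM in cold, with an adjusted p of 0.535. Over all 12506 genes the median was 0.01, and 5.33% were called. Within these lists, the HSP90 partner Nudc missed the threshold at 0.13 (adjusted p = 0.0759 in edgeR). It was higher in 4 of 4 pairs, as were 12.8% of all genes. Xbp1 of the ER list also missed it, at -0.13 (adjusted p = 0.102).

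Targets of HSF1 in the heat shock response were counted in and outside the members. Of those among the members, 8 of 11 were measured (Hspa8, Hsph1, Hspa4l, Hsp90aa1, Hsp90ab1, Dnaja1, Dnajb1 and Hspd1). Of these, 0 were called, beside 5.33% of all genes, a share at which 0 of so few genes is common. Their changes lay between -0.04 and 0.12. Of 10 measured outside the members, 1 was called. This was Hspb1, the small heat shock protein HSP27, which binds unfolding proteins without ATP and is abundant in muscle. It fell from 453, 399, 261 and 242 TPM in control to 160, 183, 160 and 130 TPM in cold, with no overlap between the groups. The log2 fold change was -1.08 ± 0.08 (adjusted p = 5.95e-08 with the block and 0.143 without it). Within that list the other 9 lay between a slight negative value, Bag3 at -0.11 (adjusted p = 0.266), and 0.04. In all, 61 partner and target genes outside the members were tested, with 1 lower, 0 higher and 59 intervals within 0.5 of 0. Of all genes tested, 4.07% were lower, 1.26% were higher and 85.1% had an interval within 0.5 of 0. Without the block edgeR called 0 of these 61 in either direction (3 at an unadjusted p under 0.05), beside 0.072% and 6.7% of all genes.

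**Figure D5:**
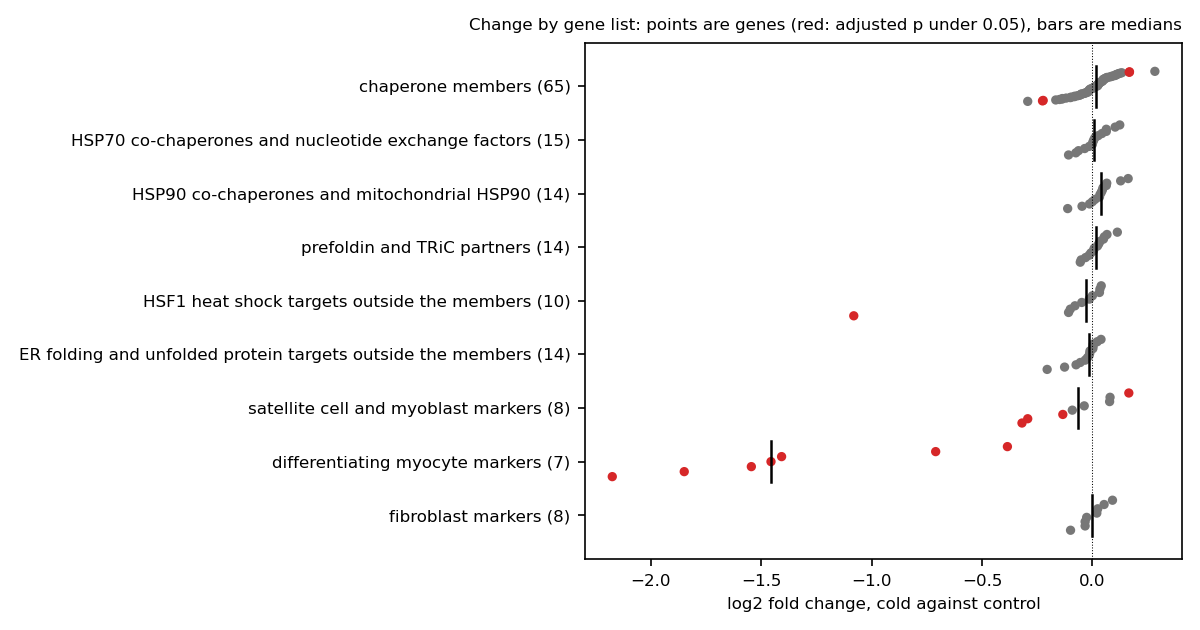
The horizontal axis is the log2 fold change of cold against control from the paired edgeR fit, with 1 point per tested gene (red at an adjusted p under 0.05), black bars for list medians and the number of genes in brackets. The chaperone members and their partner lists lie around 0 apart from Hspb1 at -1.08, while the 7 differentiating myocyte markers have a median of -1.46.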

How the data were processed

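The 8 libraries (4 control, 4 cold) were made and sequenced by the company BGI as paired-end polyA RNA on the DNBSEQ-G400. Expected counts and TPM were computed by the authors and deposited in 1 table. The submitters' processing notes name HISAT and HISAT2, and versions, counting program and genome build are not given in the sources used here. Between 96.4% and 96.6% of counts were whole. Decimal counts occurred for Dnajb6, Hspa8, Hsp90aa1 and Hspd1. They may come from reads shared between genes, which was not tested, and the values of these genes are uncertain to that extent. The authors' 8 columns of normalized counts, a signal, were not used.

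Expected counts were rounded and fitted over all genes with edgeR 4.0.16 (R 4.3.3, filterByExpr, TMM, quasi-likelihood F test, replicate number as a block, Benjamini-Hochberg over 12506 genes). The SE is the absolute log2 fold change over the square root of F. Single TPM values were compared by a two-sided exact permutation test (70 arrangements, smallest p 0.0286). The study calls the 4 libraries of a group biological replicates, and neither it nor the labels say whether they were separate animals or cultures, so p-values measure the spread between these libraries. The members, gene lists and tests were chosen with earlier results of these data known. The genes named are the main members of each class, all called members, the highest and the most changed of each class, and called genes of the other lists; further genes were picked after their values were seen.

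The numbers were taken to pair the libraries because deviations from the group means correlated at 0.61 to 0.66 across genes for the same number, at 0.43 to 0.59 between numbers 1 and 2 or 3 and 4, and at -0.61 to -0.55 across those sets, which the first principal component (54.5% of variance) also parts. The comparison was set as paired by replicate number from the outset, with earlier results known, and this check comes from the data, not from the labels. Counts from the fit without the block are given beside the calls. Alternatives used DESeq2 1.42.0, limma 3.58.1 on log2(TPM + 0.1) or log2(TPM + 1) for genes of at least 0.1 TPM in 4 libraries, and other scalings, filters and replicates. On simulated data of 12506 genes (12437 tested), the fit recovered 93 of 100 genes changed by 0.5 on the log2 scale and 100 of 100 changed by 1, with 15 false calls. The changed genes were drawn from the better counted genes, with the same change in every pair and the spread estimated by the blocked fit itself. Smaller changes, changes that vary between pairs and genes of few counts were not simulated, so these rates do not extend to them. All 71 identifiers were found in RefSeq (BCM_Maur_2.0), used for names only. Promoters and proteins were not analysed here.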

Additional observations from a re-analysis of the deposited data

Results flagged for a closer look

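Of 130 groups of 4 libraries (65 members, 2 groups), 5 held a library set apart from the other 3 by Dixon's criterion, where chance flags about 1 in 20. Hspd1 in control replicate 4 was at 832 TPM, with the others at 719 to 731 TPM. Hspa9, another mitochondrial chaperone, was at 522 TPM in the same library, with the others at 463 to 468 TPM. Dnaja1 in cold replicate 1 was at 193 TPM, below 209 to 211 TPM. Dnajb14 in control replicate 3 was at 1.28 TPM, above 1.03 to 1.04 TPM, and Dnajc22 in cold replicate 3 at 7.16 TPM, above 6.30 to 6.44 TPM. Without replicate 4, Hspd1 and Hspa9 were called higher in cold by edgeR (adjusted p = 0.00292 and 0.0257). Without replicate 1, 2 or 3 neither was called, with adjusted p values of 0.314, 0.408 and 0.121 for Hspd1 and of 0.788, 0.634 and 0.276 for Hspa9.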

How the results depend on the processing

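Over 14 alternatives, 0 members reached a log2 fold change of 1 at an adjusted p under 0.05. The 2 lower and 2 higher members of the paired edgeR fit became 0 and 0 with no replicate block, with DESeq2 and with limma at either pseudocount, 4 and 8 with replicates 1 and 2 alone, and 0 and 0 with replicates 3 and 4 alone. Leaving out 1 replicate number gave 0 to 2 lower and 0 to 4 higher members, with 0 called without replicate 1 or replicate 2 (7 and 10 at an unadjusted p under 0.05), Dnajb5 and Dnajc2 called without replicate 3, and Hspd1 and Hspa9 added to the higher ones without replicate 4. The share of all genes called moved alike, from 5.33% to 3.14%, 2.84%, 4.60% and 7.44% without replicates 1 to 4 in turn. Library totals and no filter beyond 1 count gave 3 higher members, Hspd1 among them, with 5.38% and 5.29% of all genes called in either direction. Among other pathway genes, 1 lower became 0 with no replicate block, 6 with replicates 1 and 2 alone and 1 to 2 without 1 replicate number, and 0 higher became 2 with replicates 1 and 2 alone and 2 with replicates 3 and 4 alone. The cause was not tested, and the fits to fewer replicates hold fewer libraries. The 4 called members kept their sign in all 56 values and lost the call in 30. Of 854 values of the other 61 members, 44 differed in sign. The 95% intervals of Hspa12a, Hspa12b, Dnajc6 and Dnajc12, each with at most 59 counts in a library, reached beyond 0.5, and the parts of depth and of spread between pairs were not tested.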
